A study of Mus musculus with 12 samples.

Results

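Transcripts of 10 nuclear receptors that are known from work on macrophage polarization were followed in BMDMs, cultured macrophages that were grown out of the bone marrow of mice. They are the peroxisome proliferator-activated receptors Pparg and Ppard, the shared partner Rxra, the liver X receptors Nr1h2 and Nr1h3, the orphan receptors Nr4a1, Nr4a2 and Nr4a3, the retinoic acid receptor Rara and the glucocorticoid receptor Nr3c1. They were taken from the raw count table by symbol, and each of the 10 symbols matched 1 of the 48526 genes listed.

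Nuclear receptors are transcription factors, and many of them are switched on by small lipophilic ligands. PPARs sense fatty acids and their derivatives, liver X receptors sense oxysterols, RARA binds retinoic acid and the glucocorticoid receptor binds corticosteroids. PPARs, liver X receptors and RARA bind DNA as dimers with a retinoid X receptor such as RXRA, whereas NR4A receptors act without a known classical ligand and are commonly controlled through the amount made. In macrophages these receptors are known for lipid uptake and efflux, for the alternative activation program driven by IL-4, and for restraint of inflammatory genes.

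The cells came from 3 female C57Bl/6J mice, labelled Mouse1 to Mouse3 with no age given. Marrow was grown in medium with macrophage colony-stimulating factor and used at day 7. Cells of each mouse received no cytokine (untreated), IL-4 at 100 pg/mL (IL4), Wnt3a at 100 ng/mL, or both agents, for 16 hr, so that each group held 1 culture from each of the same 3 mice. All groups are wild-type cells, and none carries a transgene or deletion.

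The deposited Wnt3a and Wnt3a+IL4 columns of a mouse hold shared reads. Within a mouse, the Wnt3a value of every gene was at least 1 and at most 2 times its Wnt3a+IL4 value (0 of 48526 genes fell outside), whereas 6681 to 8625 genes lay outside when columns of different mice were paired. The columns were therefore separated into the difference (Wnt3a column minus Wnt3a+IL4 column) and the remainder (Wnt3a+IL4 column minus the difference). Both came from Wnt3a-treated cells, and the labels do not say which of them also received IL-4. Totals were 13342492 to 17113982 counts in untreated and IL4 libraries, 14171994 to 17453377 in the difference and 15707213 to 16998867 in the remainder. All 8 macrophage markers examined (such as Adgre1, Csf1r and Lyz2) were detected in every library, and 4 of 5 T cell, at least 3 of 4 B cell and at least 3 of 4 mast cell and basophil markers stayed at 3 counts or fewer in every library of each group. The 5 stromal markers summed to 5.97 to 19.5 CPM (counts scaled to TMM-adjusted library size) and the 4 endothelial markers to 14.8 to 27 CPM. In bulk RNA, fewer cells of a type and less RNA per cell cannot be told apart.

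Of the 10 receptors, Pparg and Nr4a1 changed with IL-4, and Pparg, Nr4a1, Nr4a3 and Rara in both Wnt3a-treated parts. All 10 passed the count filter, Nr4a3 only through Wnt3a-treated libraries, so against untreated and IL4 cells only its rise could have been seen. The 10 receptors were tested in every comparison with edgeR's quasi-likelihood test. A gene was called at a Benjamini-Hochberg adjusted p under 0.05 over 12421 genes. IL-4 changed 2 of 10, with Pparg higher and Nr4a1 lower, where 3.4% of all genes were called (2.31% higher and 1.09% lower). In the difference against untreated cells, 1 rose (Nr4a3) and 3 fell (Pparg, Nr4a1, Rara), against 23.2% of all genes called (11.8% higher and 11.4% lower). The remainder against untreated cells had 1 higher (Nr4a3) and 3 lower (Pparg, Nr4a1, Rara), against 25.3% of all genes (13.6% higher and 11.7% lower). These 3 comparisons share the untreated libraries. Between both Wnt3a-treated parts, Pparg and Nr4a3 were higher in the remainder, against 5.25% of all genes (2.87% higher and 2.38% lower). In the remainder against IL4 cells, 1 rose (Nr4a3) and 3 fell (Pparg, Nr4a1, Nr3c1), against 20.3% of all genes (10.6% higher and 9.67% lower). The members' median log2 fold change was -0.08, -0.20, -0.33, 0.00 and -0.25 in these 5 comparisons in turn, beside a median between -0.02 and 0.01 over all genes tested.

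**Figure D1:**
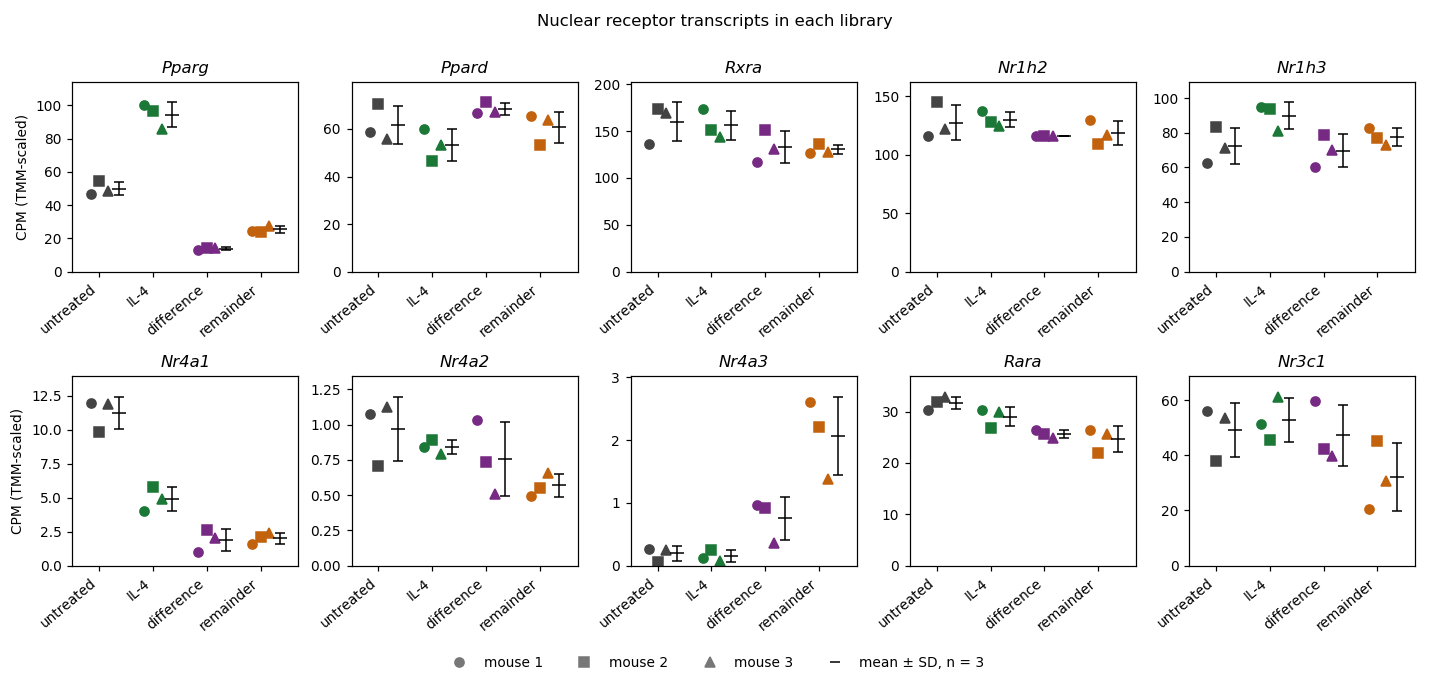
CPM (counts scaled to TMM-adjusted library size; y axis) of the 10 receptors in untreated, IL4, difference and remainder libraries (x axis), with 1 point per mouse and the mean ± SD beside them. The 4 groups of Pparg do not overlap, Nr4a1 is highest in the untreated libraries, Nr4a3 is highest in the remainder, and the group means of Nr1h2 lie between 115.8 and 130 CPM.

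**Figure D2:**
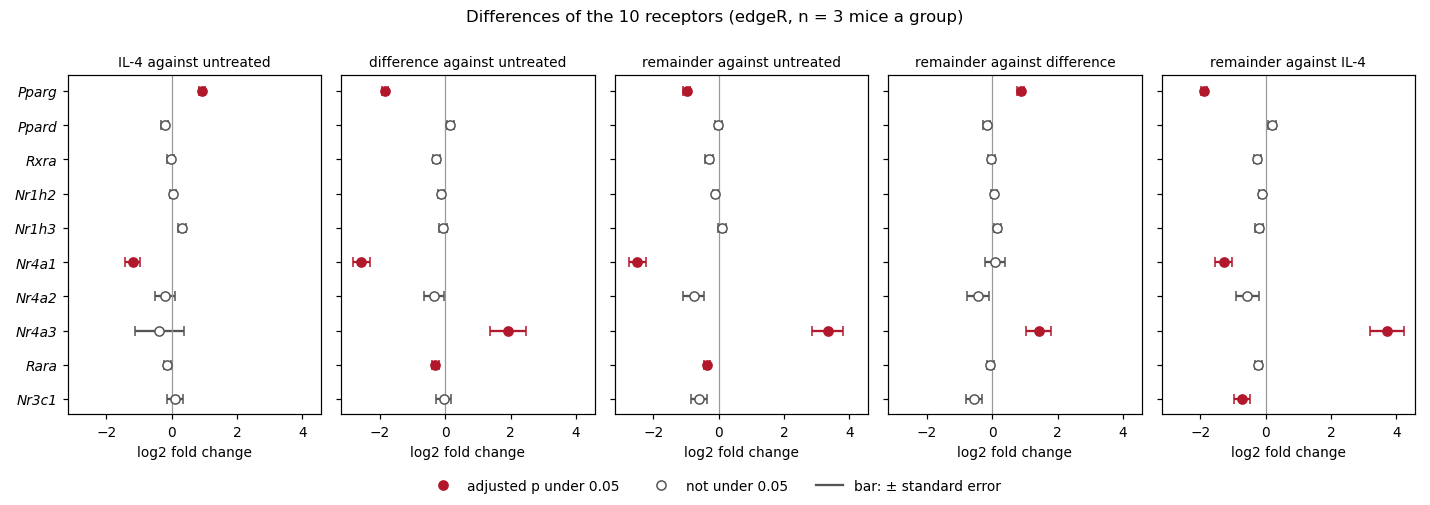
Log2 fold change (x axis, point) and standard error (bar) of each receptor in 5 comparisons of 3 libraries against 3. Filled red points have an adjusted p under 0.05, and they are Pparg, Nr4a1, Nr4a3, Rara and Nr3c1 in 1 or more panels.

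Pparg lies at chr6:115360951-115490399 on the plus strand (mm10, ENSMUSG00000000440) and encodes the receptor that directs fatty acid uptake and storage. Its counts in mouse 1, 2 and 3 were 866, 849 and 777 in untreated cells and 1677, 1508 and 1193 with IL-4. In the difference they were 224, 236 and 198, and in the remainder 394, 392 and 421. The 4 groups did not overlap in CPM, and their order was the same in all 3 mice. Means were 94.3 ± 7.43 CPM with IL-4, 49.96 ± 4.17 in untreated cells, 25.4 ± 1.96 in the remainder and 13.9 ± 0.913 in the difference (SD, n = 3).

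IL-4 raised Pparg 1.89-fold (log2 fold change 0.92 ± 0.09, SE, adjusted p = 4.9e-05). It was 3.6-fold lower in the difference than in untreated cells (-1.85 ± 0.10, adjusted p = 2.1e-08) and 1.97-fold lower in the remainder (-0.98 ± 0.10, adjusted p = 4.7e-06). Between the parts, the remainder held 1.83-fold more than the difference (0.87 ± 0.10, adjusted p = 0.00017). Against IL4 cells, the remainder held 3.71-fold less (-1.89 ± 0.10, adjusted p = 2e-08). With the deposited columns in place of the parts, Wnt3a+IL4 exceeded Wnt3a by a log2 fold change of 0.14 with an adjusted p of 1, and the 2 columns share reads.

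Ppard lies at chr17:28232700-28301474 on the plus strand and encodes a relative of PPARG that drives fatty acid oxidation genes. Counts were 1093, 1097 and 886 in untreated cells, 999, 729 and 740 with IL-4, 1165, 1165 and 921 in the difference and 1051, 866 and 970 in the remainder. Groups next to each other in order of their means overlapped, whereas every difference library lay above every remainder and IL4 library in CPM. The log2 fold changes of Ppard ran from -0.21 ± 0.11 (IL-4 against untreated, adjusted p = 0.45) to 0.19 ± 0.11 (remainder against IL4, adjusted p = 0.28).

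Of 14 PPAR target genes, 12 passed the count filter. Over all genes, 3.4% were called with IL-4, 23.2% in the difference and 25.3% in the remainder, each against untreated cells. Between the parts this share was 5.25%, and in the remainder against IL4 cells it was 20.3%. IL-4 raised 2 of these 12, beside a list median of 0.22 and 0.00 over all genes. They were the fatty acid transporter Cd36, from a mean of 135 to 328 CPM (log2 fold change 1.28 ± 0.15, adjusted p = 0.00016), and the lipoprotein lipase Lpl, from 1298 to 2199 CPM (0.76 ± 0.16, adjusted p = 0.015). The call for Lpl was lost without untreated mouse 1 or 2 or IL4 mouse 2 or 3, with adjusted p of 0.064 to 0.094. In the difference 1 target rose, the fatty acid binding protein Fabp5 (0.78 ± 0.10, adjusted p = 8e-05), and 4 fell, with a list median of -0.25. They were the lipase inhibitor Angptl4, from 45.4 to 13.03 CPM (-1.80 ± 0.17), Lpl (-1.55 ± 0.16), Cd36 (-0.83 ± 0.15) and the lipid droplet coat gene Plin2 (-0.50 ± 0.13, adjusted p = 0.012 and 0.053 without untreated mouse 2).

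The remainder had Fabp5 higher (0.84 ± 0.10) and Angptl4 (-1.83 ± 0.17), Lpl (-1.32 ± 0.16) and Cpt1a (-0.23 ± 0.08) lower than untreated cells, with a list median of -0.12. Cpt1a, which carries fatty acids into mitochondria, had an adjusted p of 0.048 that rose to 0.05 to 0.16 without untreated mouse 2 or 3, IL4 mouse 2, difference mouse 2 or 3, or any remainder library. Between the parts 1 target was called, and Cd36 was higher in the remainder (123.6 against 76.2 CPM, 0.70 ± 0.15, adjusted p = 0.014). That call was lost without difference mouse 2 or 3 (adjusted p = 0.071 and 0.073). Against IL4 cells, 1 target was higher in the remainder (Fabp5, 0.87 ± 0.10) and 5 were lower, the lowest being Angptl4 (-2.17 ± 0.17) and Lpl (-2.08 ± 0.17).

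**Figure D3:**
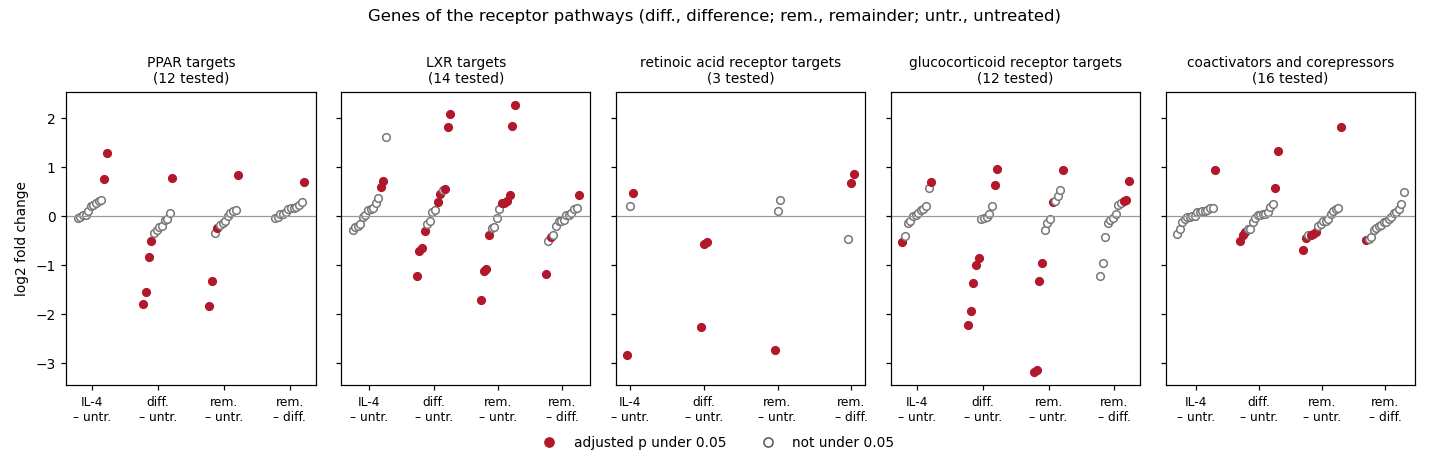
Log2 fold change (y axis) of each tested gene of 5 gene lists in 4 comparisons (x axis: IL-4, difference and remainder against untreated cells, and remainder against difference), filled red where the adjusted p was under 0.05. Each list holds genes on both sides of 0 in the Wnt3a-treated parts, such as Fabp5 above and Angptl4 below among PPAR targets, except that the 3 tested retinoic acid receptor targets all fell in the difference.

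Rxra lies at chr2:27676440-27762957 on the plus strand and encodes the dimer partner of the PPARs, liver X receptors and RARs. Counts were 2540, 2704 and 2705 in untreated cells, 2897, 2371 and 1987 with IL-4, 2051, 2476 and 1800 in the difference and 2047, 2213 and 1948 in the remainder. Every remainder library lay below every untreated and IL4 library in CPM, and the other groups overlapped. It was not called in any comparison, with log2 fold changes of -0.03 ± 0.11 for IL-4, -0.27 ± 0.11 for the difference (adjusted p = 0.1) and -0.30 ± 0.11 for the remainder (adjusted p = 0.066) against untreated cells. Without untreated mouse 1 both Wnt3a-treated parts were called lower (-0.37 and -0.39, adjusted p = 0.026 and 0.018). The difference was also called without difference mouse 2 (adjusted p = 0.047), and the remainder without difference mouse 1 (adjusted p = 0.039) or with all genes of at least 1 count (0.028). With the deposited columns both were called (0.048 and 0.044), but those columns share reads, so these are not 2 separate calls. Total counts as the scaling moved the median of all genes to -0.10 and -0.13 in these comparisons, and with it Rxra was called lower in both, at -0.35 and -0.40. So were Rxra and Rara in the remainder against IL4 cells under that scaling, at -0.31 and -0.29 (adjusted p = 0.031 and 0.036).

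Of 17 coactivators and corepressors, 16 were tested. All genes were called at 3.4% with IL-4, 23.2% in the difference, 25.3% in the remainder, 5.25% between the parts and 20.3% against IL4 cells. IL-4 changed 1 of 16, the PPAR coactivator Ppargc1b, from 3.05 to 5.86 CPM (0.94 ± 0.16, adjusted p = 0.0041). Its libraries read 3.23, 3.22 and 2.70 CPM untreated, 7.13, 5.18 and 5.27 with IL-4, 7.50, 8.37 and 7.20 in the difference and 10.1, 10.9 and 11.4 in the remainder, so each group lay above the untreated one. The difference had 2 coregulators higher (Ppargc1b, 1.33 ± 0.16, and Tbl1xr1, 0.57 ± 0.14) and 3 lower, among them the coactivator Ncoa3 (-0.39 ± 0.08) and the corepressor complex member Gps2 (-0.32 ± 0.10). Tbl1xr1 was lost without difference mouse 1 (adjusted p = 0.056), and Gps2 without untreated mouse 2 or difference mouse 2 or 3 (0.077 to 0.096). In the remainder 1 rose (Ppargc1b, 1.82 ± 0.16) and 5 fell, the lowest being Nrip1 (-0.69 ± 0.21) and Ncoa2 (-0.44 ± 0.11). The adjusted p of Nrip1 was 0.03 and rose to 0.081 to 0.13 without untreated mouse 1 or 3 or remainder mouse 1 or 3, and to 0.054 with the mouse as a replicate block. Between the parts, Ncoa2 alone was called (-0.48 ± 0.11, adjusted p = 0.016), and it was lost without difference mouse 1 or 2 or remainder mouse 1 or 3 (0.053 to 0.063). Against IL4 cells, Ppargc1b was higher in the remainder (0.88 ± 0.15) and 4 were lower, among them Ncoa2 (-0.61), Ncoa3 (-0.32) and Tbl1x (-0.30). Of these, Ncoa3 was lost without remainder mouse 1 (adjusted p = 0.053), and Tbl1x without any IL4 library, difference mouse 2 or 3, or remainder mouse 1 or 3 (0.055 to 0.2). Median log2 fold changes of the list were 0.05, 0.02 and -0.12 for IL-4, the difference and the remainder against untreated cells.

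Nr1h2 lies at chr7:44549616-44553951 on the minus strand and encodes LXRβ, an oxysterol receptor found in most cells. Counts were 2155, 2248 and 1942 in untreated cells, 2293, 2000 and 1731 with IL-4, 2029, 1893 and 1593 in the difference and 2088, 1782 and 1779 in the remainder. Both Wnt3a-treated parts overlapped the untreated libraries in CPM, as did the IL4 libraries, whereas every difference library lay below every IL4 library. Its log2 fold changes against untreated cells were 0.03 ± 0.09, -0.14 ± 0.09 and -0.10 ± 0.09, none of them called. With total counts as the scaling both Wnt3a-treated parts were called lower (-0.22 and -0.21).

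Nr1h3 lies at chr2:91184061-91202834 on the minus strand and encodes LXRα, the form enriched in macrophages, liver and fat. Counts were 1165, 1297 and 1136 in untreated cells, 1585, 1462 and 1126 with IL-4, 1048, 1292 and 962 in the difference and 1336, 1252 and 1108 in the remainder. IL-4 gave 89.9 ± 7.53 CPM against 72.4 ± 10.5 in untreated cells (SD, n = 3), higher in 3 of 3 mice, while the groups overlapped. That difference missed the threshold (0.31 ± 0.12, unadjusted p = 0.0183, adjusted p = 0.21).

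All 14 liver X receptor targets were tested, and they moved in both directions. Over all genes, 3.4% were called with IL-4, 23.2% in the difference, 25.3% in the remainder, 5.25% between the parts and 20.3% against IL4 cells. IL-4 raised 2, the stearoyl-CoA desaturase Scd2 (0.71 ± 0.11, adjusted p = 0.0019) and the sterol exporter Abcg1 from 241 to 362 CPM (0.59 ± 0.11, adjusted p = 0.0091), with a list median of 0.14. In the difference 5 rose and 4 fell, with a list median of 0.11. Scd2 rose from 14.3 to 60.7 CPM (2.09 ± 0.11, adjusted p = 1.5e-08) and Scd1 from 0.228 to 0.803 CPM (1.82 ± 0.54, adjusted p = 0.024). The lowest were the lipid carrier Apoe (-1.21 ± 0.27, adjusted p = 0.0049) and Mylip, whose product marks the LDL receptor for degradation (-0.71 ± 0.11, adjusted p = 0.00023). The remainder had 6 higher and 4 lower, led by Scd2 (2.26 ± 0.11) and Scd1 (1.85 ± 0.53) above and by Apoe (-1.71 ± 0.27) and Mylip (-1.12 ± 0.11) below, with a list median of 0.06. Both Scd1 calls were lost without untreated mouse 1 or 3, the first also without difference mouse 2 or 3 and the second without remainder mouse 1 (adjusted p = 0.057 to 0.094). Scd1 passed the count filter only through treated libraries. Between the parts, Abcg1 was higher in the remainder (0.43 ± 0.12), and Mylip (-0.42 ± 0.11) and Apoc1 (-1.17 ± 0.31) were lower. These calls had adjusted p of 0.044, 0.039 and 0.044. Abcg1 was lost without untreated mouse 3, any IL4 or difference library, or remainder mouse 1 or 3 (0.056 to 0.21). Mylip was lost without untreated mouse 3, IL4 mouse 2, any difference library, or remainder mouse 1 or 2 (0.054 to 0.17), and Apoc1 without any IL4 or remainder library or difference mouse 2 or 3 (0.055 to 0.14). With the mouse as a replicate block, Abcg1 had an adjusted p of 0.079 and Apoc1 of 0.074. Against IL4 cells, 3 targets were higher in the remainder and 4 lower, with Scd2 (1.55 ± 0.11) and Smpdl3a (0.28 ± 0.09) highest and Apoe (-1.42 ± 0.27) and Mylip (-0.93 ± 0.11) lowest. Smpdl3a was lost without IL4 mouse 2 or 3 or remainder mouse 1 or 3 (adjusted p = 0.061 to 0.11).

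Of 14 genes for the making and breakdown of receptor ligands, 6 were tested, and IL-4 called 0 of these 6 with edgeR, with 0 at an unadjusted p under 0.05. In the difference 1 rose and 2 fell, and in the remainder 1 rose and 3 fell. All genes were called at 3.4% with IL-4, 23.2% in the difference, 25.3% in the remainder, 5.25% between the parts and 20.3% against IL4 cells. Cyp27a1, which makes an oxysterol ligand of the liver X receptors, fell in the difference (-1.06 ± 0.15, adjusted p = 0.00013) and in the remainder (-1.07 ± 0.15, adjusted p = 9.9e-05). The retinol dehydrogenase Rdh10 fell in both as well (-0.97 ± 0.16 and -1.27 ± 0.16), and the cholesterol 25-hydroxylase Ch25h fell in the remainder from 1.98 to 0.718 CPM (-1.46 ± 0.31, adjusted p = 0.0026). Between the parts 0 of the 6 were called, with 1 at an unadjusted p under 0.05. Against IL4 cells, 1 was higher in the remainder and 2 were lower, Rdh10 (-1.10 ± 0.16) and Cyp27a1 (-0.85 ± 0.15). List medians were -0.12, -0.16 and -0.32 for IL-4, the difference and the remainder against untreated cells.

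Rara lies at chr11:98927818-98974942 on the plus strand. Counts were 565, 496 and 523 in untreated cells, 504, 420 and 414 with IL-4, 463, 419 and 342 in the difference and 426, 356 and 391 in the remainder. The CPM of both Wnt3a-treated parts lay below every untreated library, at 25.65 ± 0.819 in the difference and 24.7 ± 2.45 in the remainder against 31.7 ± 1.23 (SD, n = 3). Rara was 1.23-fold lower in the difference (-0.30 ± 0.10, adjusted p = 0.034) and 1.28-fold lower in the remainder (-0.36 ± 0.10, adjusted p = 0.013). The first call was lost without untreated mouse 2 or 3 or any difference library (adjusted p = 0.057 to 0.1), and the second without untreated mouse 3 (adjusted p = 0.051). With only the groups compared both were lost (0.05 and 0.061), and the first also with all genes of at least 1 count (0.13). The IL4 libraries also lay below the untreated ones, by a log2 fold change of -0.13 ± 0.10 that was not called (adjusted p = 0.61).

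Only 3 of 10 retinoic acid receptor targets passed the count filter, and the other 7 had at most 6 counts in a library. Over all genes, 3.4% were called with IL-4, 23.2% in the difference, 25.3% in the remainder, 5.25% between the parts and 20.3% against IL4 cells. The retinaldehyde reductase Dhrs3 was 559, 631 and 559.5 CPM untreated, 865, 796 and 770.0 with IL-4, 393, 385 and 403 in the difference and 707, 554 and 630 in the remainder. It rose with IL-4 (0.47 ± 0.09, adjusted p = 0.0091), fell in the difference (-0.57 ± 0.09, adjusted p = 0.00048), and was higher in the remainder than in the difference (0.68 ± 0.09, adjusted p = 0.00055). The IL-4 call was lost without untreated mouse 3 or IL4 mouse 1, with adjusted p of 0.059 and 0.05. The transglutaminase Tgm2 fell in the difference (-0.53 ± 0.15, adjusted p = 0.021) and was higher in the remainder than in the difference (0.87 ± 0.15, adjusted p = 0.0038). Its fall in the difference was lost without untreated mouse 2 or 3 or difference mouse 1 or 2 (adjusted p = 0.063 to 0.086). Asb2 was low, at 1.44 CPM in untreated cells, and fell with IL-4 to 0.197 CPM (-2.83 ± 0.50, adjusted p = 0.0047), in the difference to 0.295 CPM (-2.25 ± 0.46) and in the remainder to 0.214 CPM (-2.72 ± 0.49). Asb2 passed the count filter only through the untreated libraries, so only a fall from them could have been seen. DESeq2 gave no adjusted p for Asb2. Against IL4 cells the remainder had Dhrs3 lower (-0.36 ± 0.09, adjusted p = 0.012). The list median was 0.21 for IL-4, -0.57 for the difference and 0.11 for the remainder against untreated cells.

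The NR4A genes are immediate early genes, transcribed within minutes of many stimuli, and cyclic AMP response elements are known in their promoters. To show what the 3 promoters share, the bases just before each RefSeq transcription start (GRCm38.p6) are printed 5′ to 3′ on the gene's own strand. Capitals mark the short site TGACG on either strand, where it reads TGACG or CGTCA, and the full site TGACGTCA was also searched. Nr4a1 is shown over chr15:101266596-101266845 (plus strand, inside the annotated gene and outside its GENCODE exons), Nr4a2 over chr2:57124004-57124253 (minus strand, upstream of the annotated gene), and Nr4a3 over chr4:48045055-48045152 (plus strand), where the print stops at the first exon base that GENCODE annotates.
Nr4a1: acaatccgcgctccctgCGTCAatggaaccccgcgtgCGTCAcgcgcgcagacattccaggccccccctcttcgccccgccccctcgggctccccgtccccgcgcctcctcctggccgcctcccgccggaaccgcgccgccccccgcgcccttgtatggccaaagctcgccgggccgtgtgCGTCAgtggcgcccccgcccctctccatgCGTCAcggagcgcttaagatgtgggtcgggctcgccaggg
Nr4a2: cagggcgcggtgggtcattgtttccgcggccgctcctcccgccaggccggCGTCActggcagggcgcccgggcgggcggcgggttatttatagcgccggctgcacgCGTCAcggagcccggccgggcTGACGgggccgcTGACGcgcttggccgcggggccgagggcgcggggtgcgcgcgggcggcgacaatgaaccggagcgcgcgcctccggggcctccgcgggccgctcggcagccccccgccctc
Nr4a3: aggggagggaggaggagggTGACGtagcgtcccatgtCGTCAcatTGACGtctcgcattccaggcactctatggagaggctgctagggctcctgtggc

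Over the whole 250 bases before the start, each of the 3 NR4A promoters held 4 short sites, 3 of them within the stretch printed for Nr4a3. Of 32851 RefSeq windows of this length, 17.8% held at least 1 short site and 0.137% held 4 or more. The cut of 4 equals the count seen in the NR4A promoters, so its share is a description and not a test. The full site was in 0 windows of the members and in 1.55% of all windows. RefSeq windows were at hand for 9 of the 10 receptors, 16 windows in all, because several genes have more than 1 start. Among them, 1 of 4 Rara windows held 1 more. The nuclear receptor site AGGTCA was in 2 of 3 Pparg windows and 1 of 2 Rxra windows, and in 14% of all windows, and the STAT site TTCNNNGAA was in 1 Rara window and in 7.02% of all windows. A match describes the letters of a window and not binding.

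With Wnt3a, Nr4a1 fell and Nr4a3 rose, and Nr4a2 was not called. Nr4a1 (chr15:101254269-101274795) had 223, 153 and 189 counts in untreated cells, 67, 90 and 68 with IL-4, 18, 43 and 28 in the difference and 25, 34 and 36 in the remainder. Every treated library lay below every untreated one. IL-4 lowered Nr4a1 2.3-fold, from 11.2 ± 1.202 to 4.89 ± 0.868 CPM (SD, n = 3, log2 fold change -1.20 ± 0.23, adjusted p = 0.0092). It was 5.95-fold lower in the difference (-2.57 ± 0.26, adjusted p = 6.3e-06) and 5.6-fold lower in the remainder (-2.49 ± 0.26, adjusted p = 6.8e-06) than in untreated cells. The parts overlapped and did not differ by more than their error (0.09 ± 0.30, adjusted p = 0.91), and the remainder was 2.44-fold below IL4 cells (-1.29 ± 0.27, adjusted p = 0.0033). The call for IL-4 was lost without untreated mouse 3 (-1.17, adjusted p = 0.053) or IL4 mouse 1 (-1.07, adjusted p = 0.061).

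Nr4a3 (chr4:48045153-48086447) moved the other way from a level near the floor. It had 5, 1 and 4 counts in untreated cells and 2, 4 and 1 with IL-4, against 17, 15 and 5 in the difference and 42, 36 and 21 in the remainder. Nr4a3 thus passed the count filter only through the Wnt3a-treated libraries, where it was high. Its calls against untreated and IL4 cells are not independent of that selection. Each remainder library was above each difference library in CPM, and both parts were above all untreated and IL4 libraries. The summed counts gave a ratio to untreated cells of 3.89 (95% counting interval 1.9 to 8.78) for the difference and 10.4 (5.43 to 22.4) for the remainder. In the fit the difference exceeded untreated cells by 1.91 ± 0.55 (log2, adjusted p = 0.021) and the remainder by 3.33 ± 0.48 (adjusted p = 0.00013). The first of these calls was lost without untreated mouse 2 or difference mouse 1 or 2 (adjusted p = 0.071 to 0.086). The remainder exceeded the difference 2.68-fold (1.42 ± 0.38, adjusted p = 0.047), a call kept in only 3 of 12 fits that left out 1 library, those without untreated mouse 1 or 2 or remainder mouse 3. In the other 9 the adjusted p was 0.059 to 0.2. It was also lost with total counts (0.063), with only the groups compared (0.081) and with the deposited columns (1).

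Nr4a2 (chr2:57106830-57124003) had 20, 11 and 18 counts in untreated cells, 14, 14 and 11 with IL-4, 18, 12 and 7 in the difference and 8, 9 and 10 in the remainder. Every remainder library lay below every untreated one, but the difference was not called (-0.77 ± 0.33, unadjusted p = 0.0335, adjusted p = 0.1). At these counts the ratio of the remainder to untreated cells had a counting interval of 0.349 to 0.946.

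Among 5 markers of dendritic cells, which can also be switched on in macrophages, Ccr7 moved with the same groups as Nr4a3. The summed level of the 5 markers was 0.965 to 1.4 CPM in untreated, 1.59 to 1.74 in IL4, 2.98 to 7.67 in difference and 8.48 to 21.1 in remainder libraries. In the Wnt3a-treated parts most of it was the chemokine receptor Ccr7. In CPM, Ccr7 was 0.125 to 0.322 untreated and 0.289 to 0.479 with IL-4, the smaller part of those sums. Counts of Ccr7 were 2 to 6 untreated, 4 to 8 with IL-4, 31 to 113 in the difference and 110 to 319 in the remainder. Zbtb46, a defining factor of classical dendritic cells, had 4 to 9 counts untreated, 8 to 14 with IL-4, 4 to 10 in the difference and 13 to 28 in the remainder. In CPM every remainder library (0.807 to 1.72) lay above every untreated (0.257 to 0.484) and difference library (0.291 to 0.611) for Zbtb46. Its IL4 libraries (0.577 to 0.839) lay above the untreated ones and overlapped the remainder, and the difference overlapped the untreated ones, unlike Nr4a3. Flt3 had 0 to 5, Xcr1 0 to 11 and Siglech 1 to 6 counts in all libraries. The part of dendritic cells in the values of Nr4a3 was not tested. The 7 neutrophil markers summed to 36 to 45.9 CPM untreated, 46.8 to 55.8 with IL-4, 27.4 to 43.8 in the difference and 25.3 to 27 in the remainder, with Ly6g at 0 to 3 counts, and their part in the receptor values was not tested.

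Nr3c1 lies at chr18:39410545-39519421 on the minus strand. Counts were 1043, 587 and 851 in untreated cells, 859, 715 and 849 with IL-4, 1045, 693 and 544 in the difference and 331, 733 and 466 in the remainder. Groups next to each other in order of their means overlapped in CPM, whereas every remainder library lay below every IL4 library. Within the remainder mouse 1 was low and mouse 2 high. Means were 52.8 ± 7.87 CPM with IL-4, 49.1 ± 9.88 untreated, 47.2 ± 10.99 in the difference and 32.1 ± 12.3 in the remainder (SD, n = 3). The remainder was 1.64-fold below IL4 cells (-0.72 ± 0.24, adjusted p = 0.04995). That call was kept in 3 of 12 fits that left out 1 library (those without untreated mouse 2, difference mouse 1 or remainder mouse 2), and in the other 9 the adjusted p was 0.051 to 0.2. It was also lost with the mouse as a replicate block (adjusted p = 0.088), and with DESeq2's size factors, total counts, only the groups compared or the deposited columns (0.052 to 0.077). Against untreated cells the remainder was not called (-0.61 ± 0.24, adjusted p = 0.079), although without remainder mouse 2 it was (-0.94, adjusted p = 0.0088), as it was without untreated mouse 2 (-0.77, adjusted p = 0.032). With every library it was also called by DESeq2 (-0.61, adjusted p = 0.039) and by edgeR with all genes of at least 1 count (-0.61, adjusted p = 3e-06). Against the difference the remainder was not called (-0.56 ± 0.24, adjusted p = 0.22), but it was without remainder mouse 2 (-0.88, adjusted p = 0.035) and with all genes of at least 1 count (-0.56, adjusted p = 6.5e-05). Between the parts, that last setting called many more genes over the whole set too, and their count is given in the closing section.

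All 12 glucocorticoid receptor targets were tested. Over all genes, 3.4% were called with IL-4, 23.2% in the difference, 25.3% in the remainder, 5.25% between the parts and 20.3% against IL4 cells. IL-4 raised 1, the annexin Anxa1 from 527 to 853.5 CPM (0.70 ± 0.11, adjusted p = 0.0023), and lowered 1, the phosphatase Dusp1 (-0.52 ± 0.13, adjusted p = 0.038). The Dusp1 call was lost without 7 of the 12 libraries (untreated mouse 1, 2 or 3, IL4 mouse 1 or 3, difference mouse 2 or 3, adjusted p = 0.05 to 0.18) and with the mouse as a replicate block (adjusted p = 0.063). In the difference 2 rose and 5 fell. The stress gene Ddit4 (0.96 ± 0.21, adjusted p = 0.0043) and the kinase Sgk1 (0.63 ± 0.08, adjusted p = 3.3e-05) were the highest, and the hemoglobin scavenger receptor Cd163 (-2.21 ± 0.22, adjusted p = 5.1e-06) and the zinc finger gene Zbtb16 (-1.93 ± 0.36, adjusted p = 0.0013) the lowest. In the remainder 2 rose and 4 fell, with Sgk1 (0.95 ± 0.08) and Tsc22d3 (0.29 ± 0.08) highest and Cd163 (-3.17 ± 0.24) and Zbtb16 (-3.14 ± 0.41) lowest. Tsc22d3, which encodes GILZ, was lost without untreated mouse 1 (adjusted p = 0.058). Cd163 read 10.9, 7.14 and 11.6 CPM untreated, 11.2, 9.78 and 11.6 with IL-4, 2.29, 1.53 and 2.62 in the difference and 1.06, 1.04 and 1.18 in the remainder, so both Wnt3a-treated parts lay below the other libraries in every mouse. Between the parts, Klf9 (0.72 ± 0.16), Tsc22d3 (0.34 ± 0.08) and Sgk1 (0.32 ± 0.08) were higher in the remainder. Klf9 was lost without any difference library or remainder mouse 3, Tsc22d3 without difference mouse 1 or 2 or remainder mouse 1 or 3, and Sgk1 without difference mouse 1 or 2 or remainder mouse 3 (adjusted p = 0.056 to 0.086). Against IL4 cells, 1 target was higher in the remainder (Sgk1, 0.95 ± 0.08) and 6 were lower, with Cd163 (-3.30 ± 0.24) and Zbtb16 (-2.74 ± 0.42) lowest. List medians were 0.05, -0.04 and -0.10 for IL-4, the difference and the remainder against untreated cells.

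Compared per length, the receptors spanned a wide range. In untreated cells Nr1h2 led at 38.0 ± 4.53 CPM per kilobase of exon (SD, n = 3), followed by Rxra at 29.3 ± 3.75, Nr1h3 at 28.8 ± 4.16, Pparg at 16.9 ± 1.41, Ppard at 8.20 ± 1.05, Rara at 7.26 ± 0.282, Nr3c1 at 6.39 ± 1.29, Nr4a1 at 3.20 ± 0.343, Nr4a2 at 0.239 ± 0.0565 and Nr4a3 at 0.0325 ± 0.0189. Rxra and Nr1h3 overlapped in this order, as did Ppard with Rara and Rara with Nr3c1. With IL-4, Pparg reached 31.9 ± 2.52 CPM per kilobase, and its range overlapped those of its neighbours Nr1h3 and Rxra. In the difference Pparg was the seventh of the 10 at 4.70 ± 0.309, below every library of its neighbour Rara. In the remainder it was at 8.60 ± 0.664 and overlapped Ppard, and Nr4a3 at 0.345 ± 0.105 lay above Nr4a2.

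**Figure D4:**
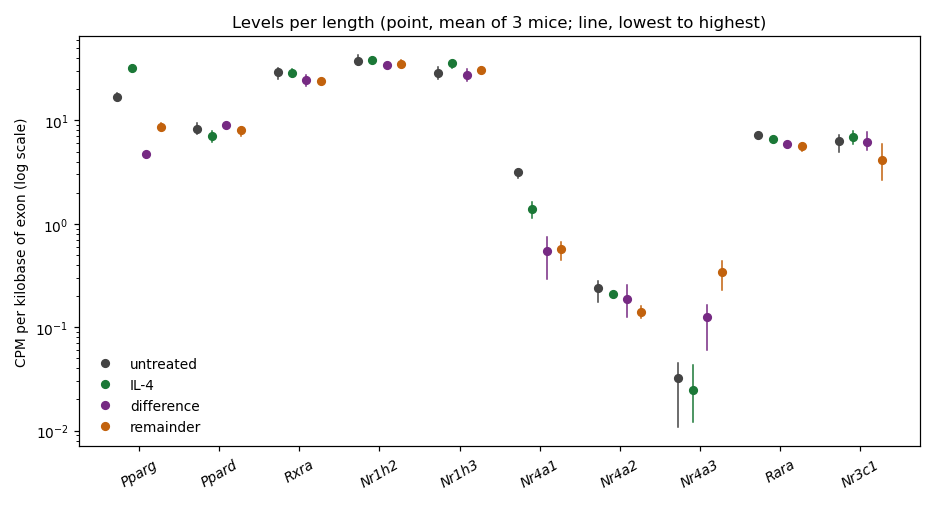
CPM per kilobase of exon on a log axis (y) for the 10 receptors (x) in 4 groups. Points are means of 3 mice and lines run from the lowest to the highest mouse. Pparg runs from 4.70 in the difference to 31.9 with IL-4, while Nr1h2 stays between 34.5 and 38.8.

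Of 39 other nuclear receptor genes, 25 had too few counts to test, at most 14 in a library, and IL-4 called 0 of the 14 tested with edgeR, with 1 at an unadjusted p under 0.05 and a list median of -0.03. All genes were called at 3.4% with IL-4, 23.2% in the difference, 25.3% in the remainder, 5.25% between the parts and 20.3% against IL4 cells. In the difference 1 rose and 3 fell. Rarg, a second retinoic acid receptor, rose from 39.2 to 53.9 CPM (0.46 ± 0.10, adjusted p = 0.0051), beside the fall of Rara. Nr1d1 (-1.59 ± 0.22, adjusted p = 0.00012) and Nr1d2 (-0.86 ± 0.25, adjusted p = 0.022), which encode the heme-binding REV-ERB repressors of the clock, fell with the vitamin D receptor Vdr (-1.31 ± 0.36, adjusted p = 0.016). In the remainder Rarg rose (0.61 ± 0.10, adjusted p = 0.0005) and Nr1d1 (-2.02 ± 0.23), Nr1d2 (-1.57 ± 0.26) and Rora (-0.99 ± 0.27) fell. In the difference, Nr1d2 was lost without untreated mouse 1 or 3 or any difference library and Vdr without untreated mouse 2 or difference mouse 3 (adjusted p = 0.052 to 0.09). In the remainder, Rora was lost without untreated mouse 1 or remainder mouse 1 or 3 (adjusted p = 0.066 to 0.074). The list medians were -0.12 and -0.11 in these comparisons. Between the parts 0 of the 14 were called, with 2 at an unadjusted p under 0.05. Against IL4 cells, the remainder had Rarg higher (0.39 ± 0.10, adjusted p = 0.015) and Nr1d1 (-1.78 ± 0.23) and Nr1d2 (-1.47 ± 0.26) lower, and Rarg was lost without IL4 mouse 2 or 3 or remainder mouse 1 (0.053 to 0.068).

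Whether the response to IL-4 differs with Wnt3a depends on which part received IL-4, so both readings are given. If the remainder is the Wnt3a+IL-4 library, IL-4 raised Pparg by 0.92 ± 0.09 without Wnt3a and by 0.87 ± 0.10 with it, and the difference between these effects was -0.04 ± 0.14 (log2, adjusted p = 0.94). If the difference is that library, the change of Pparg with Wnt3a has the opposite sign, and the effects differed by -1.79 (adjusted p = 1.6e-06). With the deposited columns in place of the parts the value was -0.77 (adjusted p = 0.0062). Those columns share reads, which shrinks the contrast between them, so that value does not measure the IL-4 effect with Wnt3a. With the first reading 0 of 10 receptors passed the edgeR test, where 0.105% of all genes were called. Of the 10, 1 had an unadjusted p under 0.05 (Nr4a1, 1.29 ± 0.38, unadjusted p = 0.00439, adjusted p = 0.21). DESeq2 also called 0 of 10, although it called more genes in all. With the other, 1 of 10 passed, and it was Pparg. With the first reading and all genes of at least 1 count, Nr4a1 (adjusted p = 0.0052) and Nr3c1 (adjusted p = 0.0051) were called. In both of these settings many more genes were called over the whole set too, and their counts are given in the closing section. No gene of the lists above was called with the first reading in the 12421 genes tested. The levels of Nr4a1 and Nr4a3 in the Wnt3a-treated parts lie on the same side of the untreated cells under both readings.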

How the data were processed

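RNA-seq counts of bone marrow-derived macrophages (BMDMs) from 3 mice were used. Per the submitters' processing notes and the methods, the authors used Trimmomatic 0.36 on single reads, mapped to mm10 by STAR 2.6.0 and counted reads per gene with HTSeq 0.11.1, and the deposited counts are not normalized. Their methods name UCSC genes, whereas the rows carry Ensembl identifiers. A symbol was found for 48058 of the 48526 (99%). The table holds 0 columns beyond those used and 0 rows that name no gene. Positions are from GENCODE vM21. At most 1.35% of a receptor's exon bases (Nr1h3, with Gm13783) and 0.23% of its 50-base stretches (Rara) are shared with another gene, and counting with or without strand is not given in the sources used here.

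Difference and remainder were solved from the Wnt3a-containing columns. A gene needed 10 or more counts in 3 or more of 12 libraries, which left 12421. Testing was by the quasi-likelihood method of edgeR 4.0.16 under R 4.3.3 (TMM, all libraries in 1 fit, Benjamini-Hochberg threshold 0.05). The interaction is the IL-4 effect with Wnt3a minus that without. CPM use TMM-scaled totals. Counting intervals are exact (95%) and cover counting error only, and 3 counts was taken as the floor.

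The same mouse gave 1 culture to each group, so the labels pair the samples. Across genes, the deviations (library minus group mean) of same-mouse pairs had correlations of -0.565 to 0.541. The p-values of the main fit rest on the spread of libraries within groups, pooled over all groups and without a term for the mouse. With 1 culture per mouse and group, spread between mice and spread between cultures cannot be told apart. Alternatives were DESeq2 1.42.0, its size factors or total counts as scaling, all genes with at least 1 count, only the groups compared, the mouse as replicate block, the deposited columns in place of the parts, the other assignment of the parts, and each library left out.

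Receptors and gene lists were chosen with earlier results of these data known. The text states which of the 10 receptors were called in every comparison. Log2 fold changes of receptors that were not called are printed only in part. Of each list, it names the called genes with the 2 highest and 2 lowest log2 fold changes, or all where 5 or fewer were called. Some called genes of the lists are counted but not reported here by name.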

Additional observations from a re-analysis of the deposited data

How the results depend on the processing

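Of 2891 values of named genes under the alternatives, 2653 kept their direction and their side of the threshold, 183 kept their direction but were no longer called, 25 were newly called and 30 changed sign. With the mouse as a replicate block, Nr3c1 in the remainder against IL4 cells (-0.71, adjusted p = 0.088), Dusp1 with IL-4, Cpt1a and Nrip1 in the remainder, and Abcg1 and Apoc1 between the parts were lost, and the paired fit changed no other call of a named gene. It called 391, 2659, 2858, 556, 2316 and 11 genes in the 6 comparisons, against 422, 2884, 3137, 652, 2521 and 13 without the block.

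IL-4 against untreated cells gave 812 genes with all genes of at least 1 count and 708 with the deposited columns, and 250 to 532 with 1 library left out, when 1 to 2 receptors were called. The difference against untreated cells called 2 receptors with only the groups compared, and 2 to 5 with 1 library left out. Remainder against difference gave 1454 genes with all genes of at least 1 count, 422 with only the groups compared, 0 with the deposited columns, and 355 to 1159 with 1 library left out. There 1 receptor was called with total counts, with DESeq2 (which gave no adjusted p for Nr4a3) or with only the groups compared, 0 with the deposited columns, 3 with all genes of at least 1 count, and 1 to 2 with 1 library left out. The interaction gave 575 genes and 2 receptors with all genes of at least 1 count, 165 genes with DESeq2, 142 genes and 1 receptor with the deposited columns, 910 genes and 1 receptor with the other assignment, and 0 to 43 genes with 1 library left out. Total counts as the scaling moved the share of called genes that were higher from 68% to 53.8% with IL-4, from 50.7% to 33.6% in the difference and from 53.8% to 35.6% in the remainder.

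Signs changed only in log2 fold changes that were not called. With IL-4, leaving out 1 library gave -0.03 to 0.12 for Nr1h2 (-0.02 with total counts), -0.13 to 0.02 for Rxra and -0.06 to 0.21 for Nr3c1. In the difference it gave -0.27 to 0.06 for Nr3c1 and -0.16 to 0.06 for Nr1h3, and in the remainder -0.09 to 0.09 for Ppard (0.05 with the deposited columns) and -0.16 to 0.01 for Nr1h2. Between the parts it gave -0.23 to 0.42 for Nr4a1, -0.11 to 0.07 for Rxra, -0.03 to 0.10 for Nr1h2 and -0.11 to 0.03 for Rara. In the interaction it gave -0.43 to 0.08 for Nr4a2, -0.97 to -0.42 for Nr3c1, 1.49 to 2.40 for Nr4a3, -0.11 to 0.01 for Pparg and -0.05 to 0.15 for Ppard. With the deposited columns the interaction of Nr4a2 was 0.15, and with the other assignment it was 0.64, that of Nr3c1 0.46 and that of Nr4a3 -1.05. The cause of these changes was not tested.

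Nr4a2 and Nr4a3, with at most 20 and 42 counts in a library, were the receptors limited most by depth. Which Wnt3a-treated part received IL-4 is not given in the sources used here.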
